A study of Arabidopsis with 36 samples.

Results

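The photorespiratory cycle was followed through 10 enzyme genes of Arabidopsis thaliana, of 33035 loci in the deposited gene table: the glycolate oxidases GOX1 and GOX2, the aminotransferases GGAT1 and AGT1, the glycine decarboxylase subunits GLDP1, GLDP2, GLDT and GLDH1, the serine hydroxymethyltransferase SHM1 and the hydroxypyruvate reductase HPR1. They were chosen by locus as named enzymes of the pathway, and all 10 were found in the table. The libraries were made from whole seedlings of 11 days, all under mock treatment, after removal of ribosomal RNA and with strand kept. The groups were wild type (Col-2) and an AtY34 overexpressor (the overexpressor below), each as total RNA, light polysomes and heavy polysomes, with 3 libraries in each of the 6 groups. The promoter of the transgene, the number of independent lines behind it and what AtY34 encodes are not given in the sources used here. An AtYchF1 overexpressor and an AtYchF1 knockdown mutant, the other lines of the study, are not analysed here, because their columns could not be tied to samples by name.

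Photorespiration recovers the carbon of phosphoglycolate, which Rubisco makes when it takes up oxygen in place of CO2. Glycolate leaves the chloroplast and is oxidised in the peroxisome to glyoxylate, which aminotransferases turn into glycine. In leaf mitochondria glycine decarboxylase, a complex of P, T, H and L proteins, works with serine hydroxymethyltransferase to make serine from glycine, with release of CO2 and ammonia. Serine returns to the peroxisome, where it becomes hydroxypyruvate and then glycerate, and the chloroplast takes back the glycerate and fixes the ammonia again through glutamine synthetase and glutamate synthase. Polysome profiling sorts an extract by sedimentation, which parts mRNAs that carry few ribosomes (light polysomes) from those that carry many (heavy polysomes).

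Levels are given as scaled TPM, that is, the deposited TPM (a length-corrected share of a library) divided by 1 factor per library, and as mean ± SD with n = 3. Fold changes are on the scale of log2(scaled TPM + 1), and a gene passed, or was called, when its limma p, adjusted by Benjamini-Hochberg over the 20171 genes tested, was under 0.05. Because TPM do not keep the number of reads, depth is unknown. A library had from 16035 to 19398 loci above 0, replicates of a group correlated across genes with r from 0.803 to 0.874, and 0 of 153 pairs of libraries held identical values. The labels do not tell whether replicates were separate cultures, and the p-values therefore speak only of how far these samples spread, and that may be technical variation. The 5 markers of green tissue summed to between 19765 and 24029 scaled TPM in total RNA, 14501 and 19132 in light and 14881 and 17991 in heavy polysomes, and none was at 0 in any library. The highest were RBCS1A, at 5365 to 9078, and CAB1, at 3386 to 9767. Single green markers differed: between heavy polysomes and total RNA over both lines 1 of 5 was called higher and 1 lower by limma, at a background of 0.947%. Of the 5 root markers PRP3 was listed at 0 in 3 libraries and PRP1 in 2. Their sum ran from 1232 to 1684 in total RNA, from 1272 to 1619 in light polysomes and from 1546 to 2003 in heavy polysomes, nearly all of it from PYK10, a beta-glucosidase, and the part of either marker list in the results below was not tested. The 4 seed storage markers summed to at most 92.7, with SESA4 at 0 in 15 libraries and SESA1 in 12. AtYchF1 (AT1G30580), after which the series is titled, stood at 42.5 ± 10.3 in wild-type total RNA and at 209.9 ± 34.5 in that of the overexpressor (log2 fold change 2.29, adjusted p = 0.000197 by limma), and it was higher in the light and heavy polysomes of that line too (2.67 and 2.23, adjusted p = 2.66e-05 and 0.000385).

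GLDP1 was the 1 gene of the 10 that changed between polysome fractions in both lines. Scaled levels are relative to the other genes of a library, so the amount of an mRNA in each fraction is not known. On this scale GLDP1 stood nearly 2 times as high in heavy as in light polysomes. Wild type had 473 ± 47.9 against 245 ± 19.4, and the overexpressor 497 ± 17.96 against 278 ± 43.3. In total RNA GLDP1 lay in between. Its paralog GLDP2, which encodes the same P protein, and the T and H subunits of the same complex had smaller differences that did not pass the threshold. Among the peroxisomal genes GOX1 and GGAT1 had their lowest mean levels in heavy polysomes in both lines, and these differences did not pass over all genes. None of the 10 genes passed between the overexpressor and wild type in any fraction.

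All 10 transcripts were abundant, and each passed the filter on low values. In total RNA AGT1 stood highest, at 735 ± 50.3 in wild type and 729.7 ± 8.83 in the overexpressor, followed by GOX1 and GGAT1. GLDP1 came next, at 336 ± 36.6 and 343 ± 6.25, and the SHM1 level was within the spread of it in wild type. GOX2, GLDH1 and HPR1 lay between 216 and 267 in both lines and their neighbours in the order overlapped in wild type, while GLDP2 and GLDT were lowest, between 89.7 and 129. In heavy polysomes of wild type the order was another: GLDP1, the fourth in total RNA, was the second, next to GOX1 at 472 ± 25.3, from which it did not differ beyond the spread. In the overexpressor GLDP1 went from rank 4 in total RNA to rank 3 in heavy polysomes, after GOX1 at 542 ± 93.2. The 10 transcripts together held 0.249% to 0.284% of the TPM in total RNA libraries, 0.308% to 0.381% in light polysomes and 0.338% to 0.513% in heavy polysomes. These are shares of all TPM, of which AT1G15405, a non-coding RNA, held 14.9% to 19.9% in total RNA libraries and at most 2.92% in a polysome library. The part of this RNA in the shares was not tested. After scaling, the summed level of the 10 ran from 2921 to 3695 in heavy polysomes and from 3185 to 3576 in total RNA, with overlap. In samples of whole seedlings, fewer cells of a type and less RNA per cell cannot be told apart.

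**Figure D1:**
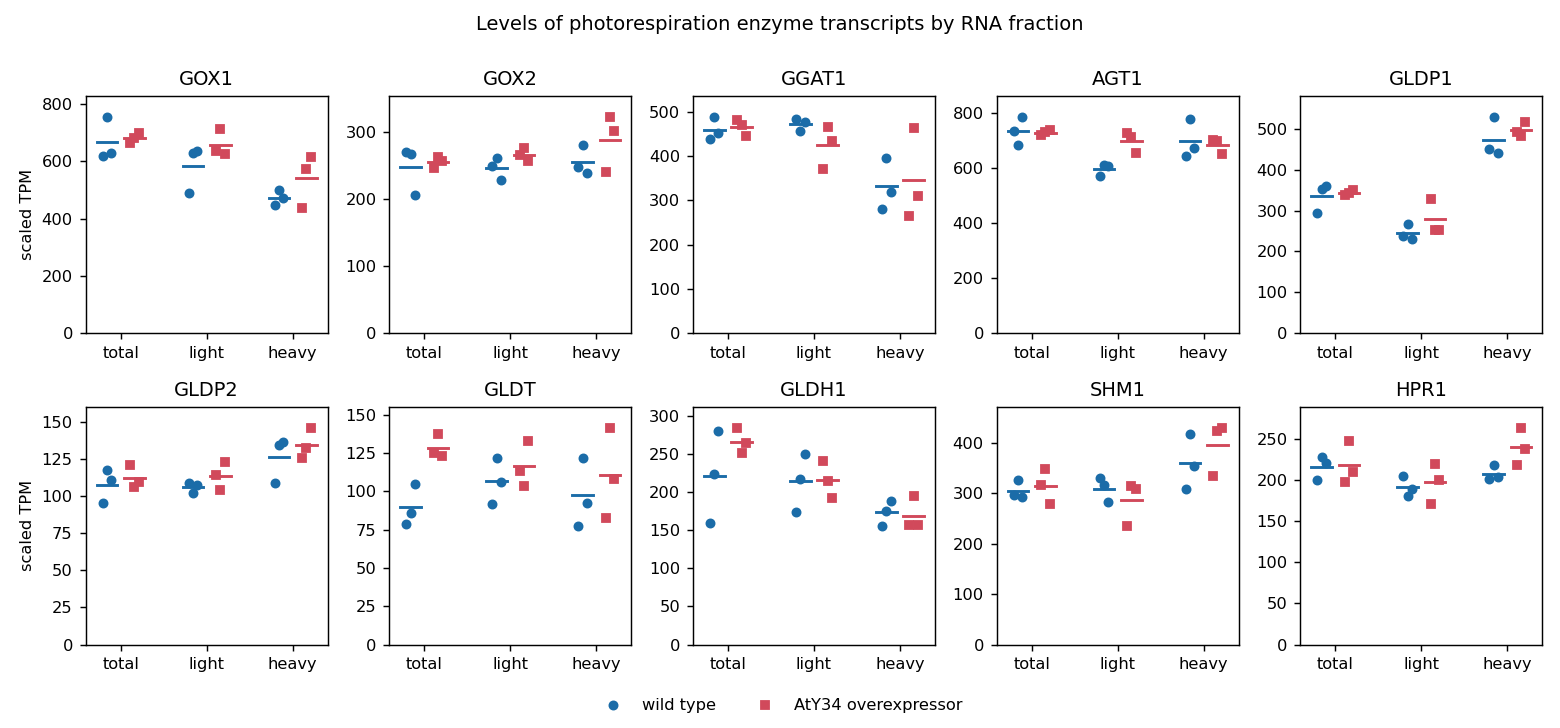
Scaled TPM of each of the 10 photorespiration genes (vertical axis, linear from 0) in total RNA, light and heavy polysomes (horizontal axis) of wild type (blue circles) and the AtY34 overexpressor (red squares), 1 point per library and a bar at each group mean. GLDP1 stands highest in the heavy polysomes and lowest in the light polysomes of both lines, while AGT1 and HPR1 vary little.

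Glycolate oxidase, the enzyme that makes glyoxylate and hydrogen peroxide in the peroxisome, was represented by GOX1 (AT3G14420) and GOX2 (AT3G14415). In replicates 1 to 3 of wild type GOX1 was at 618, 753 and 629 in total RNA, while light polysomes gave 490.1, 627 and 636 and heavy polysomes 447, 498 and 470.0. The GOX1 levels of the overexpressor were 665, 681 and 698.5 in total RNA, while light polysomes gave 634, 710.5 and 626 and heavy polysomes 437, 572 and 616. Every heavy library lay below every total RNA library of its line. The log2 fold change of GOX1 between heavy polysomes and total RNA was -0.49 (SE 0.16, unadjusted p = 0.00609, adjusted p = 0.283 by limma) in wild type. In the overexpressor it was -0.35 (unadjusted p = 0.0433, adjusted p = 0.547), and as the mean over both lines -0.42 (SE 0.11, adjusted p = 0.087), so it did not pass. Between heavy and light polysomes the mean over lines was -0.29 (SE 0.11, unadjusted p = 0.0171, adjusted p = 0.159 by limma). GOX2 stayed within 207 to 323 over all 18 libraries, with overlap between fractions in each line, and its mean fold change over lines was 0.08 between heavy and light polysomes.

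GOX1 and GOX2 are neighbouring loci of near-identical sequence, so the division of reads between them by the authors' quantification is uncertain. Within each library, where the scaling has no part, GOX1 made up 69.5%, 73.8% and 75.2% of the pair's TPM in wild-type total RNA and 64.3%, 63.9% and 66.3% in heavy polysomes. The overexpressor gave 72.9%, 72.1% and 73.1% in total RNA against 64.5%, 64.0% and 67.1% in heavy polysomes. The mean over lines fell by 7.76 percentage points, from 72.8% to 65.0%, with no overlap between the fractions in either line (exact permutation test within line, two-sided, p = 0.005, the smallest it can give, adjusted p = 0.02 over 12 tests of shares). Against light polysomes, at 70.6%, the heavy share was lower by 5.58 points (exact permutation p = 0.01, adjusted p = 0.02). The difference of -2.18 points between light polysomes and total RNA did not pass (exact permutation p = 0.12, adjusted p = 0.156), and it was -1.21 points without wild-type light replicate 1. Summed before the log, which removes the division of reads, GOX1 and GOX2 together had a log2 fold change of -0.26 between heavy polysomes and total RNA over both lines (unadjusted p = 0.0246, adjusted p = 0.292 by limma).

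Glyoxylate is turned into glycine by GGAT1 (AT1G23310), which takes the amino group of glutamate or alanine, and by AGT1 (AT2G13360), which takes that of serine and so starts the way back to glycerate. GGAT1 was at 439, 488 and 451 in wild-type total RNA, while light polysomes gave 485, 457 and 477 and heavy polysomes 279.8, 396 and 319.6. The GGAT1 levels of the overexpressor were 481.5, 471 and 446 in total RNA, while light polysomes gave 370.5, 467 and 435 and heavy polysomes 266, 464 and 309.8. In wild type the heavy libraries lay below the libraries of the other fractions, while in the overexpressor heavy replicate 2 lay within the range of light polysomes and total RNA. The log2 fold change of heavy against light polysomes was -0.52 in wild type (SE 0.19, unadjusted p = 0.0118, adjusted p = 0.247 by limma). The mean over lines was -0.42 (SE 0.13, unadjusted p = 0.00491, adjusted p = 0.0789). Against total RNA the GGAT1 value was -0.48 in wild type (SE 0.19, unadjusted p = 0.0191, adjusted p = 0.385), -0.47 in the overexpressor (unadjusted p = 0.0226, adjusted p = 0.481) and -0.47 over both (SE 0.13, adjusted p = 0.0994). Without AtY34 heavy replicate 2 the means over lines were -0.54 against light polysomes and -0.59 against total RNA, and both passed (adjusted p = 0.0115 and 0.0171 by limma).

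GGAT1 held nearly all of the TPM of GGAT1 and its paralog GGAT2, from 93.9% to 98.1% in a library. Its share was 95.5% in heavy polysomes and 97.5% in total RNA as the mean over lines, lower by 2.04 points in heavy polysomes (exact permutation p = 0.01, adjusted p = 0.02), although leaving out 1 library ended this call in 5 of 12 cases. These were wild-type total RNA replicates 1, 2 and 3, AtY34 total RNA replicate 2 and AtY34 heavy replicate 3, with differences of -2.08, -1.95, -2.09, -1.88 and -1.62 points and adjusted p from 0.05 to 0.0514 (exact permutation). A left-out library cuts the permutations from 400 to 200, which makes the p-values coarser, so a lost call need not mean a smaller difference. Against light polysomes the difference of -1.39 points did not pass (exact permutation p = 0.04, adjusted p = 0.0686), but it did without wild-type heavy replicate 2 (-1.75, adjusted p = 0.02). Between light polysomes and total RNA the difference of -0.65 points did not pass either (exact permutation p = 0.125, adjusted p = 0.156), and it did without AtY34 total RNA replicate 3 (-0.91, adjusted p = 0.0343).

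AGT1 was the most abundant of the 10 transcripts in every group mean and varied little. It was at 735, 685 and 786 in wild-type total RNA, while light polysomes gave 574, 610.5 and 607 and heavy polysomes 643, 778 and 672, and between 653 and 738 in the 9 libraries of the overexpressor. The wild-type light libraries lay below the other wild-type libraries, with a log2 fold change against total RNA of -0.30 (SE 0.13, unadjusted p = 0.0328, adjusted p = 0.48 by limma). AGT1 was also the 1 gene of the 10 with a second isoform at appreciable level. AT2G13360.2 was above 0 in all 18 libraries and held from 12.9% to 29.9% of the gene's TPM, at 17.7% ± 3.9 in wild-type total RNA, with 22.2% ± 2.0 and 16.97% ± 5.3 for light and heavy polysomes. The overexpressor gave 22.4% ± 3.9, 19.1% ± 9.4 and 20.7% ± 7.6, and the fractions overlapped. In the other 9 genes the leading isoform held from 99.5% to 100% of the TPM on average.

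The P protein of glycine decarboxylase, which removes the carboxyl group of glycine, is encoded by GLDP1 (AT4G33010) and GLDP2 (AT2G26080). GLDP1 was at 294, 354 and 360.1 in wild-type total RNA, while light polysomes gave 238, 267 and 230.0 and heavy polysomes 449.7, 528 and 441. The GLDP1 levels of the overexpressor were 337, 342 and 349.5 in total RNA, while light polysomes gave 328, 254 and 253 and heavy polysomes 492, 483 and 517.5. The fractions did not overlap in either line, with the light libraries lowest and the heavy libraries highest. GLDP1 rose from light to heavy polysomes by 0.94 on the log2 scale in wild type (SE 0.15, 95% confidence interval 0.63 to 1.26, adjusted p = 0.00447 by limma), a 1.93-fold ratio of the means. In the overexpressor it rose by 0.85 (SE 0.15, interval 0.53 to 1.16, adjusted p = 0.0119), a 1.79-fold ratio. The mean over both lines was 0.90 (SE 0.11, interval 0.67 to 1.12, adjusted p = 0.000126), above 96.6% of all genes tested.

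The GLDP1 difference lay on both sides of total RNA. Heavy polysomes were above total RNA by 0.49 in wild type (unadjusted p = 0.00424, adjusted p = 0.263 by limma) and by 0.54 in the overexpressor (unadjusted p = 0.00229, adjusted p = 0.24), and the mean over lines of 0.51 passed (SE 0.11, interval 0.29 to 0.74, adjusted p = 0.0247). Light polysomes were below total RNA by a mean of -0.38, which did not pass (SE 0.11, unadjusted p = 0.0022, adjusted p = 0.147), with -0.45 in wild type (unadjusted p = 0.00787, adjusted p = 0.334). The fractions share libraries, so these 3 comparisons are not independent. The overexpressor call between heavy and light polysomes ended without light replicate 2 (0.78, adjusted p = 0.0564 by limma), without light replicate 3 (0.78, adjusted p = 0.0658) and without heavy replicate 3 (0.82, adjusted p = 0.0585). The call against total RNA over both lines ended in 6 of 12 fits that left out 1 library, namely wild-type total RNA replicate 1, wild-type heavy replicate 2, total RNA replicates 1, 2 and 3 of the overexpressor and its heavy replicate 3 (0.47 to 0.52, adjusted p from 0.0537 to 0.0764). With only the libraries of the groups compared in the fit, GLDP1 did not pass in wild type (0.97, adjusted p = 0.0576) or in the overexpressor (0.86, adjusted p = 0.115).

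GLDP2 was at 109, 102 and 107.5 in light and 109, 134 and 137 in heavy polysomes of wild type, and in the overexpressor it was at 114, 104 and 123 in light and 126, 132 and 146 in heavy ones. Heavy and light polysomes did not overlap in the overexpressor but did in wild type, and the mean difference over lines was 0.24 (SE 0.11, unadjusted p = 0.0483, adjusted p = 0.276 by limma). Against total RNA it was also 0.24 over lines (adjusted p = 0.373). The share of GLDP1 in the TPM of both P protein genes followed the fractions. In wild type it was 75.6%, 75.1% and 76.5% in total RNA, 68.6%, 72.3% and 68.1% in light polysomes and 80.5%, 79.7% and 76.3% in heavy polysomes. In the overexpressor it was 73.6%, 76.3% and 76.2%, then 74.2%, 70.9% and 67.3%, and then 79.7%, 78.5% and 78.0%. Heavy and light polysomes did not overlap in either line. The mean over lines rose by 8.56 points from light to heavy polysomes, from 70.2% to 78.8% (exact permutation test within line, two-sided, p = 0.005, adjusted p = 0.02). It rose by 3.27 points from total RNA, at 75.5%, to heavy polysomes (exact permutation p = 0.01, adjusted p = 0.02) and fell by 5.30 points from total RNA to light polysomes (exact permutation p = 0.01, adjusted p = 0.02). Summed before the log, the P protein genes still rose from light to heavy polysomes, by 0.77 in wild type and 0.69 in the overexpressor (adjusted p = 0.0131 and 0.0247 by limma).

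**Figure D2:**
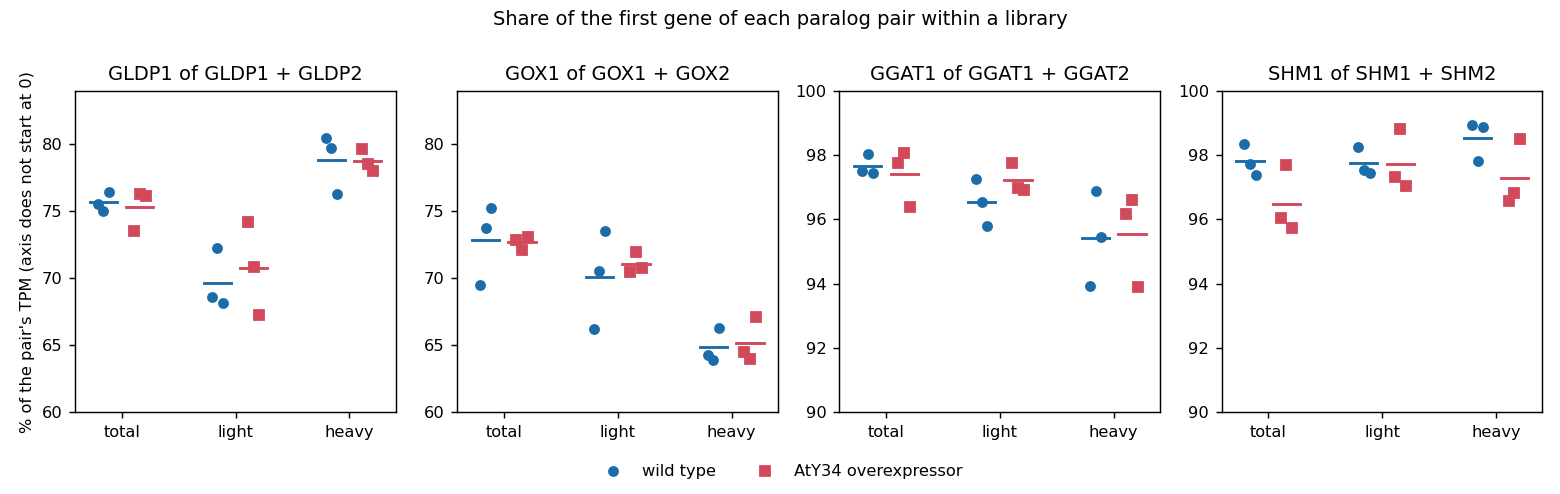
Percent of a pair's TPM held by its first gene in each library (vertical axes, which do not start at 0), for GLDP1 of GLDP1 and GLDP2, GOX1 of GOX1 and GOX2, GGAT1 of GGAT1 and GGAT2, and SHM1 of SHM1 and SHM2, by fraction (horizontal axis), with blue circles for wild type, red squares for the AtY34 overexpressor and bars at group means. The GLDP1 share was 70.2% in light and 78.8% in heavy polysomes over both lines, and the GOX1 share 72.8% in total RNA and 65.0% in heavy polysomes.

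The T protein, GLDT (AT1G11860), which passes the methylene carbon of glycine to folate, was at 78.7, 85.6 and 105 in wild-type total RNA and at 125, 137 and 123 in that of the overexpressor. In polysomes GLDT ranged from 77.7 to 141 with overlap between all groups, and its mean difference over lines between heavy and light polysomes was -0.12. GLDH1 (AT2G35370), one of the genes for the lipoyl-bearing H protein, was at 159, 224 and 280.1 in total RNA and 156, 176 and 189 in heavy polysomes of wild type, and the overexpressor had 284, 251 and 264 in total RNA and 157, 194.5 and 156 in heavy polysomes. The wild-type total RNA libraries were far apart and overlapped the heavy ones, while in the overexpressor every heavy library was lower. The log2 fold change of GLDH1 between heavy polysomes and total RNA was -0.66 in the overexpressor (SE 0.20, unadjusted p = 0.00434, adjusted p = 0.316 by limma) and -0.48 over both lines (SE 0.14, adjusted p = 0.122). Against light polysomes it was -0.32 over both lines (SE 0.14, unadjusted p = 0.0367, adjusted p = 0.242 by limma). GLDP1 passed in a direction in which the values of GLDT and GLDH1, genes for other proteins of the same complex, were negative without passing. Other genes of the complex had positive values over both lines that did not pass either. These were GLDP2 and, from the pathway list below, the H protein genes GLDH2 and GLDH3 and the L protein genes LPD1 and LPD2.

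SHM1 (AT4G37930), which makes serine from glycine and the folate-bound carbon, was at 331, 316 and 282 in light and 308.5, 417 and 353 in heavy polysomes of wild type, with overlap. The overexpressor had 236, 315 and 308 in light and 334, 423 and 429 in heavy polysomes, without overlap. Its log2 fold change between heavy and light polysomes was 0.47 in the overexpressor (SE 0.17, unadjusted p = 0.0131, adjusted p = 0.256 by limma) and 0.34 as the mean over lines (SE 0.12, unadjusted p = 0.0115, adjusted p = 0.127). Against total RNA the mean was 0.28 (adjusted p = 0.332). SHM1 held from 95.7% to 98.9% of the TPM of SHM1 and SHM2, and none of the 3 tests of this share between fractions passed (exact permutation p = 0.685, 0.13 and 0.265 for heavy against light polysomes, heavy polysomes against total RNA and light polysomes against total RNA, adjusted p = 0.685, 0.156 and 0.289). HPR1 (AT1G68010), which reduces hydroxypyruvate to glycerate in the peroxisome, stayed within 171 to 262 over the 18 libraries, and it had no unadjusted p under 0.05 in any of the 15 comparisons.

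As a set, the 10 genes did not move to one side. Between heavy and light polysomes 6 of the 10 values were positive and 4 negative in wild type, with a median of 0.09 against -0.06 over all genes, and 5 were positive in the overexpressor, with a median of 0.04 against -0.04. GLDP1 was the 1 of 10 called in each line, where 0.957% of all genes tested were called in wild type and 0.689% in the overexpressor. Over both lines 1 of 10 was called, at a background of 4.68%, and 6 of 10 had an unadjusted p under 0.05 by limma, 3 of them positive (GLDP1, SHM1 and GLDP2) and 3 negative (GGAT1, GOX1 and GLDH1), where 17.8% of all genes did. Without overlap in both lines was 1 of 10, higher, against 2.69% of all genes.

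Between heavy polysomes and total RNA 5 of the 10 values were positive in each line (medians 0.00 and 0.02, with 0.05 and 0.03 over all genes). Over the 4370 genes with a mean of 20 scaled TPM or more, the medians were -0.03 and -0.04. In the single lines 0 of 10 were called by limma, at backgrounds of 0.129% in wild type and 0.0644% in the overexpressor, and 3 and 4 of 10 had an unadjusted p under 0.05, where 9.86% and 8.9% of all genes did. Over both lines 1 of 10 was called at a background of 0.947%, and 6 of 10 had an unadjusted p under 0.05 by limma, where 13.1% of all genes did. Without overlap in both lines were GLDP1, higher, where 1.07% of all genes were, and GOX1, lower, where 1.58% were. Between light polysomes and total RNA 7 of the 10 values were negative in wild type and 8 in the overexpressor, with medians of -0.02 and -0.14, while the medians over all genes were 0.11 and 0.06. Over the 4370 genes with a mean of 20 scaled TPM or more, the medians were -0.04 and -0.01, so the wild-type members were not lower than these. In this comparison 0 of 10 were called by limma, at backgrounds of 0.104% and 0.109% in the lines and 0.456% over both, and 2 and 0 of 10 had an unadjusted p under 0.05, where 9.39% and 8.39% of all genes did. Over both lines 1 of 10 had one, where 11.9% of all genes did. GLDP1 was the 1 gene of the 10 lower without overlap in both lines, where 0.863% of all genes were. In TPM as deposited the median over all genes was 0.52 for heavy polysomes against total RNA and 0.45 for light polysomes against total RNA, as means over lines, where scaling left 0.06 and 0.10. In the unscaled values GOX1, GGAT1 and GLDH1 had positive means over lines between heavy polysomes and total RNA (0.21, 0.15 and 0.14). These lie below that median of 0.52. Scaling divides each library by 1 factor and so shifts abundant genes alike. That these genes lie under the median in both kinds of values was therefore set beforehand and adds no support.

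**Figure D3:**
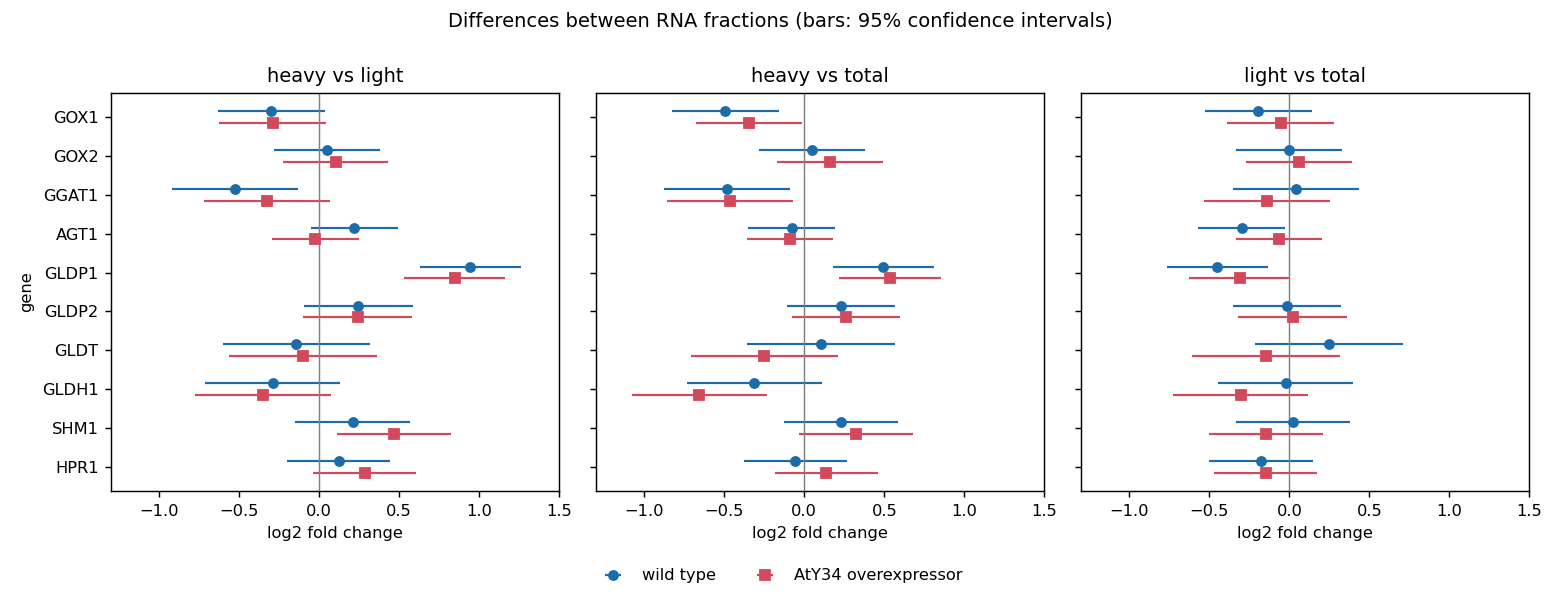
Log2 fold change of each of the 10 genes between fractions (horizontal axis) with its 95% confidence interval (bars), for heavy against light polysomes, heavy polysomes against total RNA and light polysomes against total RNA, in wild type (blue circles) and the AtY34 overexpressor (red squares). GLDP1 lies at 0.94 and 0.85 in the first panel, with intervals that keep clear of 0.

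Ratios between genes within 1 library do not depend on the scaling. Those of GLDP1 to other genes were chosen after the values were seen and are given with no test. GLDP1 stood at 0.51 ± 0.06 of GOX1 in wild-type total RNA, at 0.42 ± 0.06 for light polysomes and 1.001 ± 0.06 for heavy polysomes, and at 0.503 ± 0.0035, 0.43 ± 0.08 and 0.94 ± 0.16 in the overexpressor. Its ratio to GLDH1, a gene of the same complex, was 1.57 ± 0.28 in wild-type total RNA, 1.17 ± 0.23 for light and 2.74 ± 0.36 for heavy polysomes. For the overexpressor it was 1.29 ± 0.09, 1.28 ± 0.09 and 2.97 ± 0.44. Every heavy library was thus above every total RNA and light library in the ratios to GOX1 and GLDH1. The ratio to GGAT1 was 0.73 ± 0.06, 0.52 ± 0.06 and 1.44 ± 0.15 in the fractions of wild type and 0.74 ± 0.04, 0.67 ± 0.19 and 1.52 ± 0.43 in those of the overexpressor. The ratio to GS2, the plastid glutamine synthetase, was highest in light polysomes, with 1.31 ± 0.07 in total RNA, 1.58 ± 0.12 for light and 1.39 ± 0.09 for heavy polysomes of wild type, and 1.29 ± 0.03, 1.65 ± 0.19 and 1.35 ± 0.12 in the overexpressor.

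**Figure D4:**
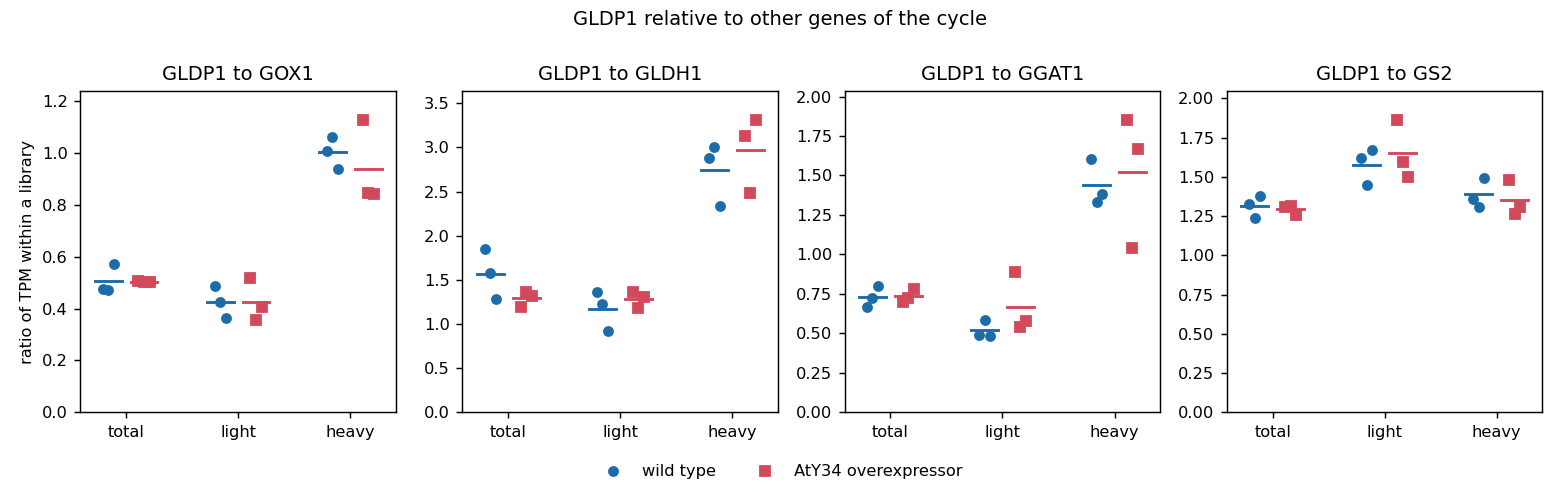
Ratio of the TPM of GLDP1 to that of GOX1, GLDH1, GGAT1 and GS2 within each library (vertical axes from 0) by fraction (horizontal axis), with blue circles for wild type, red squares for the AtY34 overexpressor and bars at group means. The ratio to GOX1 is about 0.51 in wild-type total RNA and 1.001 in heavy polysomes, while the ratio to GS2 stays between 1.31 and 1.58 in the wild-type means.

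The overexpressor was compared with wild type to ask whether the level of these transcripts, or their place in the gradient, differs between the lines. In total RNA 9 of the 10 values were positive, from -0.01 to 0.52, and 0 of 10 were called by limma, at a background of 0.0793%. GLDT had the largest value, 0.52 (SE 0.22, interval 0.06 to 0.98, unadjusted p = 0.0282, adjusted p = 0.559), and it was the 1 gene of the 10 with an unadjusted p under 0.05, where 8.13% of all genes had one. Its libraries did not overlap between the lines in total RNA, where 4.79% of all genes were higher without overlap, but they did in both polysome fractions. In light polysomes and in heavy polysomes 8 of 10 values were positive, 0 of 10 were called by limma at backgrounds of 0.0347% and 0.0198%, and 0 of 10 had an unadjusted p under 0.05, where 4.59% and 4.47% of all genes did. AGT1 was higher without overlap in light polysomes and HPR1 in heavy polysomes, where 4.53% and 4.65% of all genes were. The intervals of the 10 genes reached from -0.37 to 0.98 in total RNA, from -0.56 to 0.59 in light and from -0.46 to 0.63 in heavy polysomes.

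The shift between fractions was compared between the lines as an interaction in the same limma model. For GLDP1 the rise from light to heavy polysomes differed by -0.10 between the lines (AtY34 line minus wild type, interval -0.55 to 0.35, unadjusted p = 0.652, adjusted p = 1 by limma). Over the 10 genes the intervals of this difference reached from -0.66 to 0.76. In each of the 3 interactions 0 of 10 genes were called by limma and 0 of 10 had an unadjusted p under 0.05, at backgrounds called of 0%, 0.00496% and 0.00992% for heavy against light polysomes, heavy polysomes against total RNA and light polysomes against total RNA. Of all genes 3.43%, 5.07% and 5.4% had an unadjusted p under 0.05 in these interactions.

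A list of 26 other genes of the pathway was read in the same fit, covering phosphoglycolate phosphatases, further oxidases, catalase, the other decarboxylase subunits, transporters, glycerate kinase and the refixation of ammonia. Between heavy and light polysomes 20 of the 26 values were positive as the mean over lines, with a median of 0.11, where 45.6% of all genes tested were positive. In the single lines 17 were positive in wild type and 18 in the overexpressor. The mean level was under 20 scaled TPM in 12 of the 26. Of the 14 others 13 were positive in wild type, 9 in the overexpressor and 13 over both. By limma 1 of 26 was called in wild type, 2 in the overexpressor and 2 over both, all higher, at backgrounds of 0.957%, 0.689% and 4.68%, and these were GS2 and GLU1, the plastid glutamine synthetase and the ferredoxin-dependent glutamate synthase, which take up the ammonia that glycine decarboxylase sets free. GS2 (AT5G35630) was at 147, 184 and 138 in light and 330.5, 403 and 295 in heavy polysomes of wild type, and the overexpressor had 176, 159 and 169 in light and 332, 383 and 395 in heavy ones, without overlap in either line. It rose by 1.13 in both lines (SE 0.17, adjusted p = 0.00275 in wild type and 0.00359 in the overexpressor by limma). Against total RNA, at 256 ± 32.2 in wild type and 265 ± 11.4 in the overexpressor, it fell in light polysomes by 0.68 over both lines (SE 0.12, adjusted p = 0.0116).

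GLU1 (AT5G04140) was at 87.9, 65.5 and 80.9 in light and 119, 144 and 111 in heavy polysomes of wild type and the overexpressor had 72.1, 74.2 and 86.2 in light and 130.1, 160.0 and 151 in heavy ones. It rose by 0.91 in the overexpressor (SE 0.18, adjusted p = 0.0247 by limma) and by 0.79 over both lines (SE 0.13, adjusted p = 0.00178), while the wild-type value of 0.67 did not pass (SE 0.18, adjusted p = 0.0998). Heavy polysomes against total RNA gave 0 of 26 calls by limma in either line or over both. The backgrounds were 0.129% in wild type, 0.0644% in the overexpressor and 0.947% over both. At an unadjusted p under 0.05 were 3, 3 and 4 of 26, where 9.86%, 8.9% and 13.1% of all genes were. In the comparisons of the overexpressor with wild type 0 of 26 were called and 0 of 26 had an unadjusted p under 0.05 in any fraction by limma. Of all genes 0.0793%, 0.0347% and 0.0198% were called in total RNA, light and heavy polysomes. An unadjusted p under 0.05 was found for 8.13%, 4.59% and 4.47% of all genes. Near the threshold over both lines, between heavy and light polysomes, were DIT2.1, a dicarboxylate transporter of the chloroplast, at 0.85 (SE 0.24, adjusted p = 0.0504) and GLYK, the glycerate kinase that ends the cycle, at -0.55 (SE 0.16, adjusted p = 0.0574). GLDH3, another H protein gene of high level, had a value of 0.15 and LPD2, one of the genes for the L protein, of 0.83 (adjusted p = 0.139). PGLP1B, a near-identical copy of PGLP1, was listed at 0 in most libraries, so the division of reads between the copies is uncertain.

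**Figure D5:**
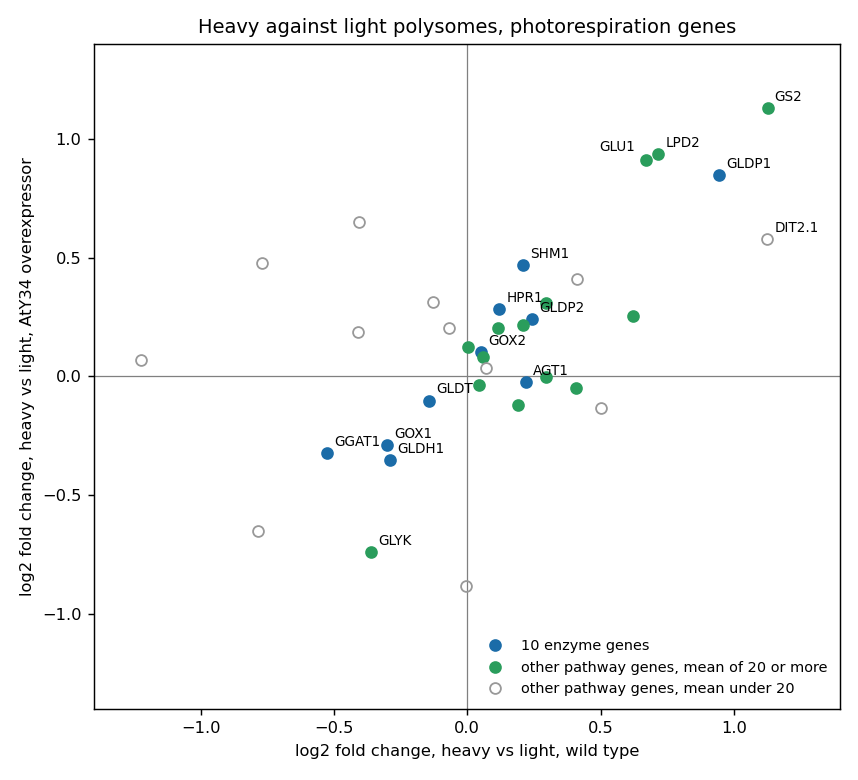
Log2 fold change between heavy and light polysomes of wild type (horizontal axis) and of the AtY34 overexpressor (vertical axis) for the 10 photorespiration genes (blue) and for the 26 other pathway genes, filled green where the mean level was 20 scaled TPM or more and open below that. GLDP1, at 0.94 and 0.85, and GS2, at 1.13 in both lines, lie apart from most other points at the upper right, with GLU1 and LPD2 nearby.

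Over the 18 libraries the 10 genes did not vary as 1 group. The lowest Pearson r between log2 levels of a pair was -0.65, for GGAT1 and GLDP1, and the highest was 0.73, for SHM1 and HPR1. GLDP1 and GLDP2 had an r of 0.71, GOX1 and GGAT1 of 0.70 and GOX1 and GLDH1 of 0.68, while GOX1 and GLDP1 had -0.46. These are descriptions, since the libraries fall into fractions and share their scaling. Among 4369 other genes whose mean level was 20 scaled TPM or more, the pattern most like that of GLDP1 over the 18 libraries was that of GS2 (r = 0.96), followed by BXL1 (0.94) and APA1 (0.91). The genes most like GOX1 were AT3G03990 (0.90), RBCS1A, a small subunit of Rubisco (0.87), and GAPB, a glyceraldehyde phosphate dehydrogenase of the Calvin cycle (0.82). Those most like GGAT1 were TCTP (0.91), LHCA4, a light-harvesting protein (0.89), and DI19 (0.88). For SHM1 they were EIF3C, a translation initiation factor subunit (0.86), THI1 (0.85) and AT1G29470 (0.84), and for GLDP2 they were AT4G28080 (0.84), AT1G50920 (0.79) and GLU1 (0.79). The leading r was 0.81 for GLDH1 (AT5G58110), 0.81 for HPR1 (CYP86A2), 0.79 for AGT1 (AT3G52500), 0.79 for GLDT (EXL3) and 0.75 for GOX2 (TGG2).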

How the data were processed

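Polysome-associated and total RNA of seedlings was sequenced, and the values the authors deposited are TPM per gene and per transcript. FastQC, MultiQC and STAR, and the build TAIR10, are named in the submitters' processing notes; the deposited tables carry salmon in their name, and no version or further step is given in the sources used here. Columns were tied to samples by name, so 18 sample columns of genes and 54 of transcripts were not used. To scale libraries, each was divided by its median ratio to the geometric mean of the 9431 nuclear genes that reached TPM 1 everywhere, which gave factors of 0.736 to 1.39. A gene entered the tests when it reached TPM 1 in 3 or more libraries, which 20171 nuclear genes did. Log2(scaled TPM + 1), a scale that understates the change of low genes, went into limma 3.58.1 (R 4.3.3), with 1 mean per group, a variance prior that follows the mean and 12 residual degrees of freedom. All tests are two-sided. Benjamini-Hochberg adjustment ran over all genes within each of 15 comparisons, and a call is an adjusted p under 0.05. The mean over lines averages the fraction difference of both lines in that fit. Shares of paralog pairs, computed with pandas 2.3.3 and numpy 2.4.6, were compared by exact permutation within line. Symbols came from a RefSeq gene table of the TAIR10.1 assembly, which matched all 10 genes and all 26 of the pathway list. All 10 genes are described, with statistics for those with an unadjusted p under 0.05, and pathway genes by whether they passed; DIT2.1, GLYK, LPD2, GLDH3 and PGLP1B were chosen after their values were seen. The genes and lists were chosen with earlier results of these data known. Alternatives tried were TPM as deposited, quantile normalization, a pseudocount of 0.1, no filter, a fit of only the groups compared, a replicate block, leaving out each library and, after seeing the data, summed paralog pairs.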

Additional observations from a re-analysis of the deposited data

How the results depend on the processing

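The GLDP1 call of heavy against light polysomes held in wild type, and over both lines, whichever library was left out (highest adjusted p = 0.0369 and 0.000689 by limma), and was lost in single lines when only the groups compared were fitted, so that 0 of 10 genes were called in wild type and 0 in the overexpressor. The share of all genes called in such refits is not given here, so lost or gained calls cannot be set against it. Leaving out 1 library gave 0 to 1 called genes in the overexpressor between heavy and light polysomes, 1 to 2 over both lines, and 0 to 2 over both lines between heavy polysomes and total RNA. That last GLDP1 call (0.51) ended in 6 of 12 such fits, without wild-type total RNA replicate 1 (0.47, adjusted p = 0.0764), wild-type heavy replicate 2 (0.47, 0.0537), AtY34 total RNA replicates 1, 2 and 3 (0.51, 0.51 and 0.52, adjusted p = 0.0568, 0.0553 and 0.0568) and AtY34 heavy replicate 3 (0.50, 0.0602), and GGAT1 passed over both lines without AtY34 heavy replicate 2. With TPM as deposited 5 of 10 genes were called between heavy polysomes and total RNA in wild type, 6 in the overexpressor and 7 over both lines, 2 between light polysomes and total RNA and 2 between heavy and light polysomes over both lines. The background moved with them. Over both lines 1177 of 20171 genes were called as deposited between light polysomes and total RNA, against 92 scaled. Between heavy and light polysomes 1081 were called over both lines, against 944 scaled. For heavy polysomes against total RNA 789, 714 and 3579 genes were called as deposited, against 26, 13 and 191 scaled. The deposited medians over all genes were 0.52 in each of these 3. As deposited, the sign turned positive, though below those medians (below 0.45 for light polysomes against total RNA), for GOX1 between heavy polysomes and total RNA (0.13 in wild type, 0.29 in the overexpressor, 0.21 over both), for GGAT1 (0.14, 0.17 and 0.15), for GLDH1 over both lines (0.14), and, between light polysomes and total RNA, for AGT1 (0.15) and GLDP1 in wild type (0.00099) and GLDP1 over both lines (0.085). In leave-one-out tests the GOX1 share ran from -3.04 (without wild-type light replicate 3) to -1.21 points (without wild-type light replicate 1) for light polysomes against total RNA, the GGAT1 share from -2.41 to -1.62 points for heavy polysomes against total RNA, from -1.75 to -0.97 for heavy against light polysomes and from -0.91 to -0.47 for light polysomes against total RNA, and the SHM1 share from -0.12 to 0.46 for heavy against light polysomes, with -0.12 without AtY34 heavy replicate 3. Whether the replicate numbers pair the libraries was not settled. Deviations of same-numbered libraries correlated with r from -0.05 to 0.20 (median 0.05) between fractions of a line. Libraries with other numbers gave r from -0.30 to 0.15 (median -0.03). An r over 0.1 was found in 4 of 18 same-numbered pairs and in 2 of 36 others. Between lines same-numbered libraries gave r from -0.17 to 0.07. The permutation tests of shares took no account of such pairing. A replicate block changed 0 of 42 calls or counts, and GLDP1 then had adjusted p = 0.00545 in wild type and 0.0133 in the overexpressor between heavy and light polysomes. TPM without read numbers leave the depth unknown. Between heavy and light polysomes of wild type, the median SE over genes of at least 20 scaled TPM was 0.32. Such a spread limits what 3 libraries a group can show.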
